A study of Homo sapiens with 12 samples.

Results

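Transcripts of 10 amino acid transporters of the solute carrier (SLC) families were followed across 12 RNA-seq libraries of prostate cancer cells. The genes were SLC7A11, SLC7A5, SLC3A2, SLC7A1, SLC1A4, SLC1A5, SLC38A1, SLC38A2, SLC38A4 and SLC6A9. They were taken by symbol from the 60675 genes listed for each library, and all 10 were found. The study asked how the histone demethylases KDM1A and KDM7A act on androgen-regulated expression in LNCaP, a human prostate cancer line that depends on androgen, and in LNCaP:C4-2 (C4-2), the castration-resistant line derived from it. All cells were kept in medium with charcoal-stripped serum and given the synthetic androgen R1881 at 1 nM for 72 h, so every group, controls included, carried androgen. C4-2 received R1881 alone or with the KDM1A inhibitor namoline (50 µM), the KDM7A-selective inhibitor TCE-5002, or both inhibitors (the combination). The methods give the control, here called R1881 alone, as R1881 with the DMSO vehicle. Per the paper, TCE-5002 also targets KDM7B (PHF8) and KDM2A. LNCaP received R1881 alone or R1881 with the combination. Each of the 6 groups held 2 libraries, which the study calls biological replicates. TCE-5002 is listed at 100 µM in the series text and at less than that in the methods, and which dose was used is not known.

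Cells cannot make every amino acid they use, and transporters in the plasma membrane set how fast each one enters or leaves. SLC3A2 (the heavy chain CD98hc, or 4F2hc) carries light chains to the cell surface. With the light chain SLC7A5 (LAT1) it exchanges large neutral amino acids such as leucine, and with SLC7A11 (xCT) it takes up cystine in exchange for glutamate, which feeds glutathione synthesis. SLC7A1 (CAT1) carries arginine and lysine. SLC1A5 (ASCT2) and SLC1A4 (ASCT1) exchange small neutral amino acids such as alanine, serine and, for SLC1A5, glutamine. SLC38A1, SLC38A2 and SLC38A4 are sodium-coupled carriers of glutamine, alanine and related amino acids, and SLC6A9 (GLYT1) takes up glycine. Many of these genes are known targets of ATF4, the transcription factor of the amino acid response. In prostate cancer, SLC7A5 and SLC1A5 are known as nutrient transporters whose levels respond to androgen signalling.

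Library totals ran from 14791602 to 20690819 counts. The libraries labelled LNCaP stood apart from C4-2 in the markers of cell state. The 8 prostate epithelial markers summed to 778 to 843 CPM (counts scaled to the effective library total) in LNCaP R1881 against 2693 to 2818 CPM in C4-2 R1881. CDH1 was the largest part of the C4-2 sum, at 948 and 990 CPM against 45.3 and 39.7 CPM in LNCaP R1881. KLK3 alone of the 8 went the other way, at 404 and 357 CPM in LNCaP R1881 against 206 and 224 CPM in C4-2 R1881. The 4 mesenchymal markers summed to 784 to 867 CPM against 30.1 CPM in both C4-2 libraries. Most of this was vimentin (VIM), at 652 and 736 CPM against 2.62 and 2.24 CPM, while FN1 differed less, at 38.9 and 40.2 CPM against 26.9 and 27.7 CPM. These groups are therefore written as the libraries labelled LNCaP. Within C4-2 the epithelial sum also moved with treatment, to 2917 to 3275 CPM with namoline, 4005 to 4022 CPM with TCE-5002 and 2039 to 2099 CPM with the combination, and its part in the results was not tested. For replicate 1 of the LNCaP combination, the aligned file named in the header carries namoline only, although title and file name give both inhibitors. Each tested fold change of the transporters that rests on this replicate is therefore also given without it. The gene lists are also given without it, by their counts or their median. Of 3 lymphoid markers, IL2RB was at 27.5 and 29.9 CPM in C4-2 R1881 and from 0.294 to 4.72 CPM in the other C4-2 libraries, while PTPRC and CD3E were at or near 0 in all 12. The 3 neuroendocrine markers summed to at most 3.09 CPM in C4-2 and to 17.5 to 26.5 CPM in the libraries labelled LNCaP.

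Short stretches of promoter sequence are shown because a response element of the ATF4 family is the feature these genes are best known to share. RefSeq promoter windows (GRCh38.p14, 300 bases each, from 250 bases before to 50 bases after a gene start) were held for 9 of the 10 genes, 15 windows in all. SLC7A11 had no entry. The letters TGATGNAA, the core of the amino acid response element, were searched on both strands. They lay in 5 of the 15 windows, of 5 genes, against 3.62% of 35116 promoters of the same length. Some genes have up to 3 windows, which share a gene and are not independent. Each stretch below runs 5′ to 3′ along the gene, with the matching letters in capitals.
SLC1A4, chr2:64989382-64989409: cggctcccgtTTGCATCAtctccagccg
SLC1A5, chr19:46784894-46784921: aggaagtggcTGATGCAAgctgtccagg
SLC38A1, chr12:46266503-46266530: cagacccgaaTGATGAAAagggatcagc
SLC3A2, chr11:62881726-62881748: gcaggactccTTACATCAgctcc
SLC7A1, chr13:29595664-29595691: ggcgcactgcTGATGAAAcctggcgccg
The capitals begin 7 bases upstream of a RefSeq start in SLC1A4, 97 upstream in SLC1A5 and 4 upstream in SLC38A1, and at base 8 after the start in SLC7A1 and base 38 in SLC3A2. In the GENCODE 29 annotation the match lay in an intron of other transcripts for SLC1A4 and SLC38A1 and in an untranslated exon for SLC1A5, SLC3A2 and SLC7A1. The letters TGACNNNGC, the core of the antioxidant response element, lay in 4 of the 15 windows against 13.3% of all promoters. They were found in SLC1A5, SLC3A2, SLC7A1 and SLC7A5. The matches began 111 bases upstream of a start in SLC1A5, 37 in SLC3A2, 85 in SLC7A1 and 2 in SLC7A5. They lay in a coding exon for SLC1A5, in an exon of a non-coding transcript for SLC3A2, and outside the gene for SLC7A1 and SLC7A5. Only the match in SLC3A2 is printed.
SLC3A2, chr11:62881652-62881680: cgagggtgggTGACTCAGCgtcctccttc
A match describes the letters in the window and is not evidence of binding.

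With R1881 alone, C4-2 spread its transporter transcripts over several genes. Per exon length, in FPKM, the order of mean levels was SLC7A1 (133), SLC38A2 (121), SLC7A5 (102), SLC3A2 (94.9), SLC1A5 (84.1), SLC38A1 (73.7), SLC7A11 (61.9), SLC6A9 (24.3), SLC1A4 (4.69) and SLC38A4 (2.98). The 10 together summed to 702 ± 18.2 FPKM (SD, n = 2). The sum was 353 ± 9.26 FPKM with namoline, 373 ± 17.9 FPKM with TCE-5002 and 552 ± 34.4 FPKM with the combination. In the combination SLC3A2 alone made up 48.1% of that sum, against 13.5% with R1881 alone. In the libraries labelled LNCaP the sum was 721 ± 5.52 FPKM with R1881 alone and 446 ± 27.6 FPKM with the combination, where the replicate in doubt stood at 466 and the other at 427 FPKM.

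**Figure D1:**
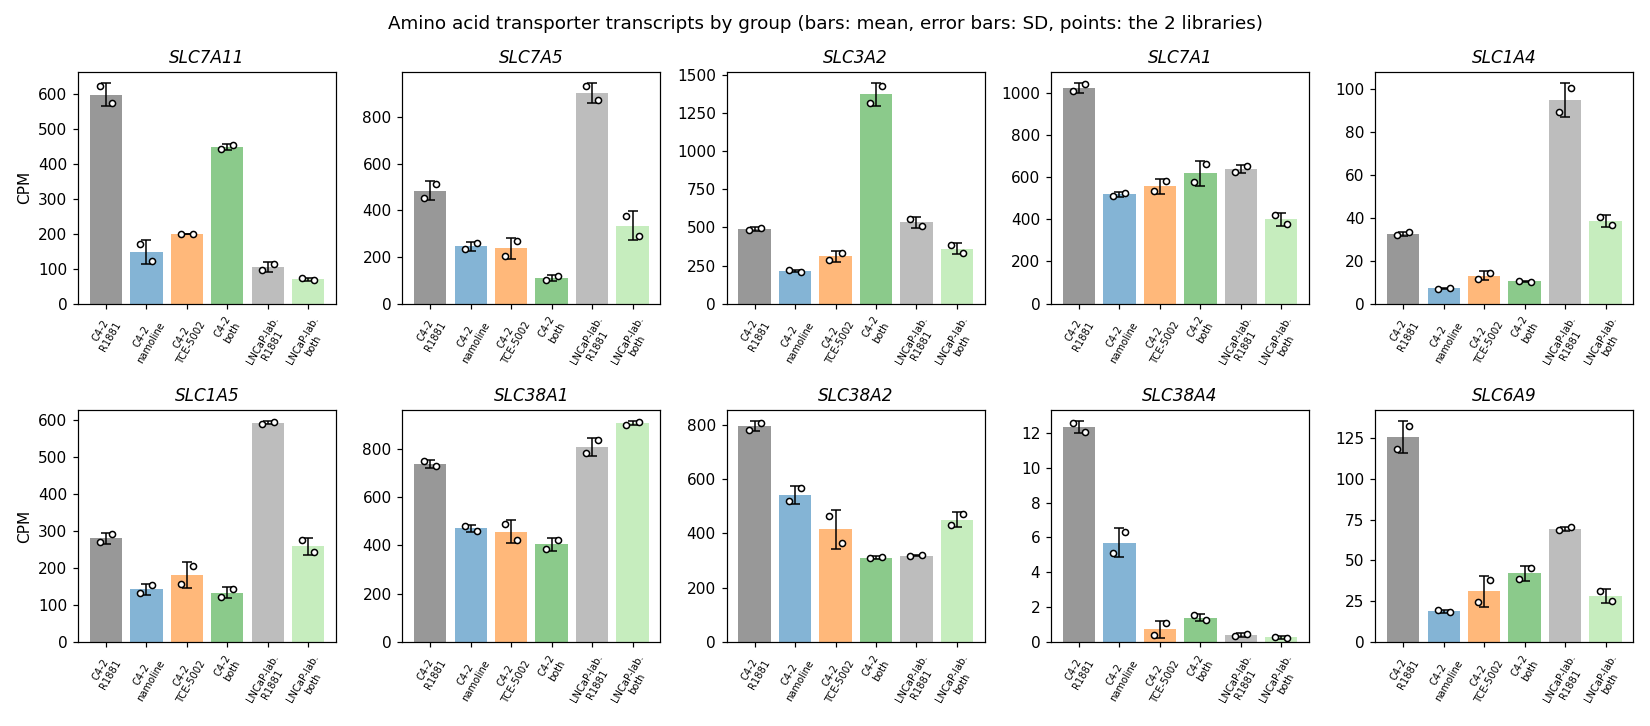
Level of each of the 10 transporter transcripts in CPM (vertical axes, linear, from 0) in the 6 groups; bars are means, error bars are SDs of 2 libraries and points are the libraries. Each single inhibitor lies below R1881 alone in C4-2 for every gene, and SLC3A2 rises to 1375 CPM with the combination in C4-2.

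In C4-2, all 10 transcripts were lower with namoline than with R1881 alone, and all 10 were lower with TCE-5002 (edgeR adjusted p under 0.05 in each case). With namoline 7 of the 10 were at least 2-fold lower, against 6.90% of all 17702 genes tested, and 35.1% of all genes had an adjusted p under 0.05 in either direction. The median log2 fold change of the 10 was -1.07, beside 0.00 over all genes. With TCE-5002, 5 of the 10 were at least 2-fold lower, against 6.83% of all genes, with 36.8% of all genes past the adjusted p alone. The median of the 10 was -1.01, beside 0.00. With the combination 9 were lower and 1, SLC3A2, was higher. Of these, 6 were at least 2-fold lower, against 12.8% of all genes, and SLC3A2 was at least 2-fold higher, against 8.90%. An adjusted p under 0.05 alone was common with the combination, at 50.6% of all genes in either direction. The median of the 10 was -1.23, beside -0.03. These 3 comparisons share the same 2 R1881 libraries. The members were chosen with earlier results of these data known, so the shares of all genes beside them are a description and not an independent contrast. In bulk libraries fewer cells of a type and less transcript per cell cannot be told apart.

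**Figure D2:**
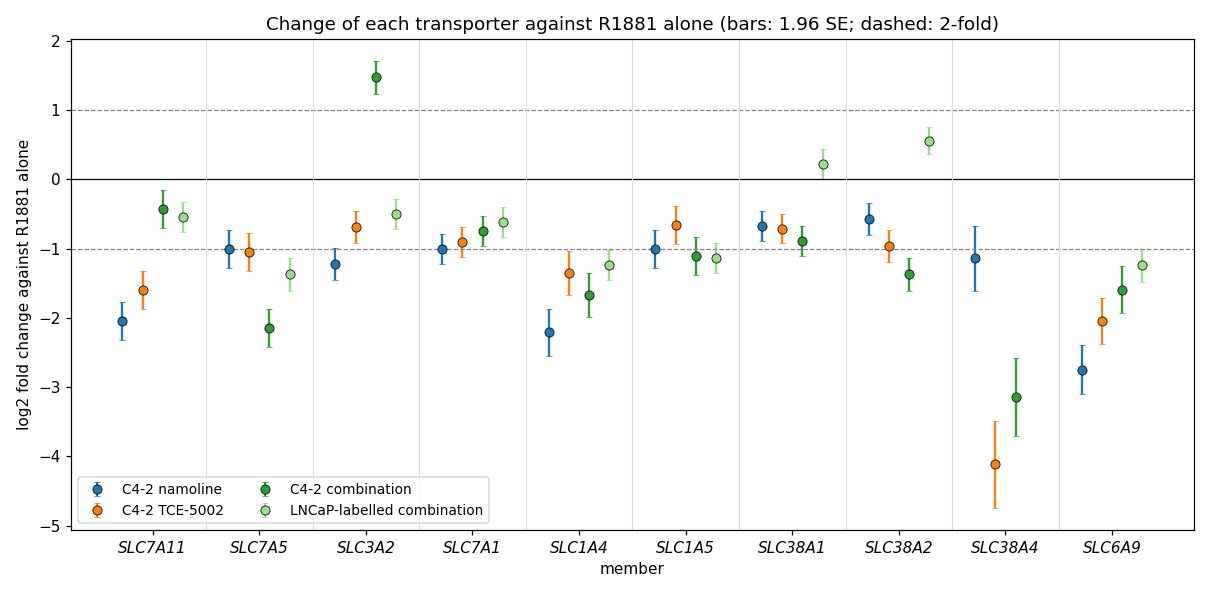
Log2 fold change (vertical axis) of each transporter against R1881 alone of the same line, for the 3 treatments of C4-2 and for the combination in libraries labelled LNCaP; error bars are 95% intervals and dashed lines mark 2-fold. SLC3A2 with the C4-2 combination is the one point above the upper dashed line, at 1.47; SLC38A4 has no LNCaP point because its counts were too low to be tested there.

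With the combination the heavy chain SLC3A2 and the light chain SLC7A5 moved in opposite directions. SLC3A2 (ENSG00000168003, GRCh38 chromosome 11, 62856102 to 62888875, plus strand) was at 483 and 500 CPM in C4-2 with R1881 alone. It was at 218 and 210 CPM with namoline, at 284 and 335 CPM with TCE-5002, and at 1321 and 1428 CPM with the combination. The C4-2 groups did not overlap, and both combination libraries lay far above the rest. SLC3A2 fell with namoline (log2 fold change -1.22, SE 0.12, adjusted p 1.61e-06) and, by less than 2-fold, with TCE-5002 (-0.69, SE 0.12). It rose 2.77-fold with the combination (1.47, SE 0.12, adjusted p 1.56e-07). Against namoline the combination was 6.45-fold higher and against TCE-5002 4.46-fold higher (adjusted p 4.55e-10 and 2.72e-09). The single inhibitors differed from each other by 0.53 on the log2 scale (interval from -0.76 to -0.30, namoline minus TCE-5002).

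SLC7A5 (ENSG00000103257, chromosome 16, 87830023 to 87869488, minus strand), the leucine exchanger's light chain, moved the other way. Its levels were 455 and 514 CPM with R1881 alone, 233 and 260 CPM with namoline and 205 and 269 CPM with TCE-5002. With the combination they were 101 and 119 CPM, below every other C4-2 library. The single inhibitors overlapped each other and lay near the 2-fold line, at -1.0 (SE 0.14) with namoline and -1.05 (SE 0.14) with TCE-5002. The namoline value did not reach the line in the main fit but passed it with GC offsets (-1.19), RLE scaling (-1.01) and DESeq2 (-1.01). It ran from -1.09 to -0.90 with 1 library left out. The TCE-5002 value became -0.86 without TCE-5002 replicate 1 and -0.95 without R1881 replicate 2. The combination gave a 4.44-fold fall (-2.15, SE 0.14, adjusted p 2.01e-08). This was lower than either inhibitor alone, by 2.22-fold against namoline and 2.15-fold against TCE-5002. The second difference was under 2-fold with GC offsets (-0.92) and without TCE-5002 replicate 2 (-0.89).

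SLC7A11 (ENSG00000151012, chromosome 4, 138164097 to 138242349, minus strand), the cystine importer's light chain, showed another pattern again. It was at 621 and 574 CPM with R1881 alone, at 170 and 122 CPM with namoline, at 200 and 199 CPM with TCE-5002, and at 440 and 452 CPM with the combination. It was therefore well below R1881 with either inhibitor and nearer to it with both. The fall was 4.14-fold with namoline (adjusted p 4.42e-08) and 3.04-fold with TCE-5002 (adjusted p 8.89e-07). With the combination it was 1.35-fold lower (-0.43, SE 0.14, adjusted p 0.015), a difference that missed the test without R1881 replicate 1 (-0.38, adjusted p 0.109) and without either combination replicate. The combination stood 3.07-fold above namoline and 2.25-fold above TCE-5002. Exons of SLC7A11 share 9.0% of their bases with its antisense gene SLC7A11-AS1 (a mean of 39.5 counts), and counting was done without strand.

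Per exon length, SLC3A2 stood at 0.58 of the sum of SLC7A5 and SLC7A11 in C4-2 with R1881 alone. The library values were 0.582 and 0.575 with R1881, 0.632 and 0.602 with namoline, 0.858 and 0.836 with TCE-5002 and 3.81 and 3.83 with the combination. The heavy chain transcript thus exceeded these light chains together in the combination and in no other C4-2 group. Over the same groups the ratio of SLC7A11 to SLC7A5 was 0.610 ± 0.0862, 0.296 ± 0.0907, 0.421 ± 0.0820 and 2.00 ± 0.197 (SD, n = 2). SLC3A2 also serves light chains that are not summed here. In the libraries labelled LNCaP the heavy to light ratio was 0.521 and 0.499 with R1881 and 0.857 and 0.942 with the combination.

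**Figure D3:**
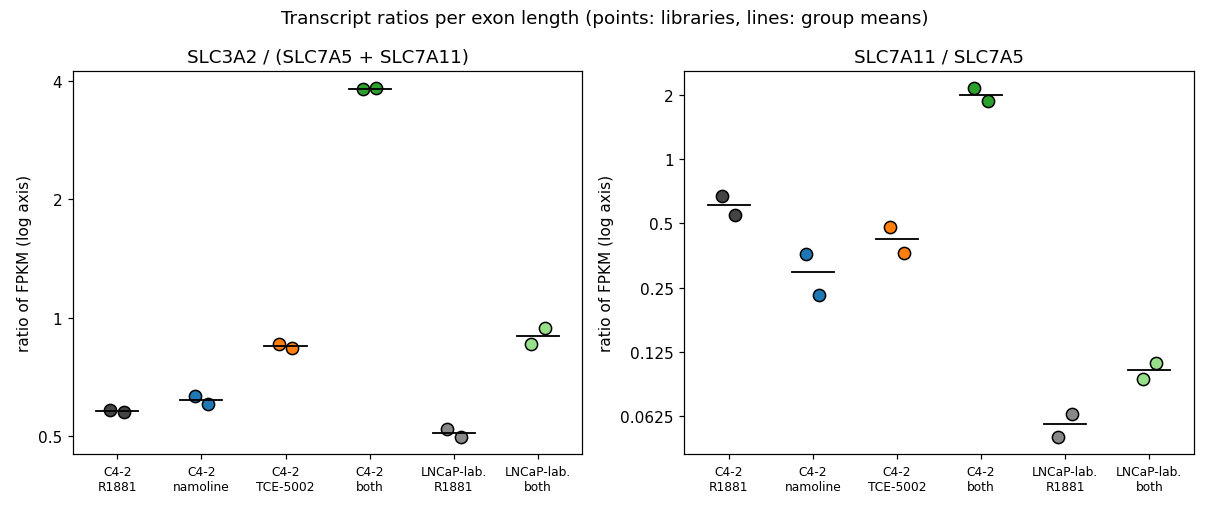
Ratios of FPKM on log axes for each library (points) with group means (lines): SLC3A2 over the sum of SLC7A5 and SLC7A11 on the left, SLC7A11 over SLC7A5 on the right. The C4-2 combination stands at 3.81 and 3.83 on the left, and the other 5 groups lie between 0.499 and 0.942.

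SLC7A1 (ENSG00000139514, chromosome 13, 29509410 to 29595688, minus strand), the arginine and lysine carrier, was the most abundant member in C4-2 with R1881. Its levels were 1006 and 1039 CPM with R1881 alone, 509 and 525 CPM with namoline, 531 and 580 CPM with TCE-5002, and 575 and 659 CPM with the combination. All 3 treated groups lay below R1881, and the TCE-5002 and combination groups overlapped. The log2 fold changes were -1.01 (SE 0.11), -0.90 (SE 0.11) and -0.74 (SE 0.11), with the highest adjusted p at 6.85e-05. The namoline value came under 2-fold, at -0.97, without R1881 replicate 2. Adding the other inhibitor made no difference that passed the test: 0.26 against namoline (interval from 0.04 to 0.49, adjusted p 0.0584) and 0.16 against TCE-5002 (interval from -0.06 to 0.38).

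Both ASC exchangers fell with every treatment. SLC1A5 (ENSG00000105281, chromosome 19, 46774883 to 46788594, minus strand) was at 270 and 291 CPM with R1881 alone and at 131 and 153 CPM with namoline. It was at 156 and 204 CPM with TCE-5002 and at 122 and 143 CPM with the combination. No treated library reached the R1881 level. The log2 fold changes were -1.0 (SE 0.14), -0.66 (SE 0.14) and -1.10 (SE 0.14). The namoline value, just past 2-fold, came under it at -0.92 without namoline replicate 1 and -0.94 without R1881 replicate 2. The combination value lost its call, at -1.0, without combination replicate 1. An antisense gene covers 23.4% of the exonic bases of SLC1A5 but averaged 3.8 counts per library.

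SLC1A4 (ENSG00000115902, chromosome 2, 64988477 to 65023865, plus strand) was much scarcer, at 31.8 and 33.3 CPM with R1881 alone. It was at 6.88 and 7.37 CPM with namoline, 11.5 and 14.3 CPM with TCE-5002 and 10.6 and 10.1 CPM with the combination. The lowest levels were those of namoline alone, and no treated group overlapped R1881. The falls were 4.63-fold (adjusted p 1.13e-07), 2.56-fold (adjusted p 1.16e-05) and 3.18-fold (adjusted p 7.75e-07). Namoline lowered SLC1A4 more than TCE-5002 did, by 0.86 on the log2 scale (interval from -1.19 to -0.52, adjusted p 0.0028). The ratio of SLC1A5 to SLC1A4 per exon length was 17.9 ± 0.389 with R1881 and 41.5 ± 2.48 with namoline (SD, n = 2).

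The sodium-coupled carriers SLC38A1 and SLC38A2 fell with every treatment, and with namoline by the least of the 10. SLC38A1 (ENSG00000111371, chromosome 12, 46183063 to 46270017, minus strand) was at 750 and 726 CPM with R1881 alone, 480 and 460 CPM with namoline, 490 and 424 CPM with TCE-5002, and 383 and 423 CPM with the combination. The single inhibitors overlapped, and all treated libraries lay below R1881. Its log2 fold changes of -0.67, -0.71 and -0.89 (SE 0.11 each) all had adjusted p-values under 0.05 and all stayed under 2-fold. SLC38A2 (ENSG00000134294, chromosome 12, 46358189 to 46372867, minus strand) is known to be induced when amino acids are short. It was at 783 and 809 CPM with R1881 alone, 518 and 567 CPM with namoline, 466 and 364 CPM with TCE-5002, and 308 and 314 CPM with the combination. The combination libraries were the lowest of the 8. The log2 fold changes were -0.57, -0.96 and -1.37 (SE 0.12 each), and the combination was lower than namoline by 0.79 (adjusted p 4.81e-05) and lower than TCE-5002 by 0.41 (adjusted p 0.00976). The difference from TCE-5002 missed the test without combination replicate 1 (adjusted p 0.0663) or 2 (0.0886), and was -0.22 without TCE-5002 replicate 1.

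SLC38A4 (ENSG00000139209, chromosome 12, 46764761 to 46832408, minus strand) was the scarcest member, and its values rest on few counts. It had 269 and 189 counts with R1881 alone, 87 and 105 with namoline, 7 and 20 with TCE-5002 and 28 and 20 with the combination. In CPM these were 12.6 and 12.1, then 5.11 and 6.29, then 0.368 and 1.07, and then 1.55 and 1.24. TCE-5002 and the combination were lower than namoline in every library. The falls were 2.20-fold with namoline (adjusted p 0.00181), 17.3-fold with TCE-5002 (adjusted p 2.83e-07) and 8.84-fold with the combination (adjusted p 5e-07). It was the single member at least 2-fold apart between the 2 inhibitors, 7.87-fold higher with namoline than with TCE-5002 (adjusted p 3.51e-05), where 2.41% of all genes were at least 2-fold higher with namoline. The log2 fold change with TCE-5002, -4.11 (SE 0.32), ran from -5.06 to -3.54 when 1 library was left out at a time.

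SLC6A9 (ENSG00000196517, chromosome 1, 43991500 to 44031467, minus strand), the glycine transporter, had the largest fold change of the 10 with namoline. It was at 118 and 132 CPM with R1881 alone, 19.5 and 18.2 CPM with namoline, 24.1 and 37.7 CPM with TCE-5002, and 38.8 and 45.1 CPM with the combination. All treated libraries were below R1881, and relative to their mean the TCE-5002 replicates stood well apart. The falls were 6.74-fold (adjusted p 2.86e-08), 4.11-fold (adjusted p 7e-07) and 3.02-fold (adjusted p 2.12e-06). The combination was 2.23-fold above namoline (adjusted p 4.84e-05) and 1.36-fold above TCE-5002 (adjusted p 0.0378). On the log2 scale this last difference, 0.45, was 0.16 (adjusted p 0.256) without TCE-5002 replicate 1 and 0.81 without replicate 2, and it also missed the test without either namoline or either combination library. CCDC24, on the opposite strand, shares 7.8% of the exonic bases of SLC6A9.

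Whether both inhibitors together acted as the sum of their single log2 changes was tested as an interaction. For 6 of the 10 members the combination was at least 2-fold above that sum, where 16.8% of all genes were above it in this way, and the median of the 10 was 1.53 beside -0.01 over all genes. The values were 3.37 (SE 0.17) for SLC3A2, 3.22 (SE 0.20) for SLC7A11, 3.20 (SE 0.25) for SLC6A9, 2.10 (SE 0.47) for SLC38A4, 1.90 (SE 0.23) for SLC1A4 and 1.16 (SE 0.16) for SLC7A1. SLC3A2 alone of these was above R1881 itself. SLC1A5 (0.56, SE 0.19) and SLC38A1 (0.50, SE 0.16) lay above the sum by less than 2-fold. Both missed the test with some single libraries left out, SLC1A5 at 0.47 (adjusted p 0.105) without namoline replicate 1 and SLC38A1 at 0.47 (adjusted p 0.0857) without combination replicate 2. For SLC7A5 (-0.10, interval from -0.49 to 0.28) and SLC38A2 (0.17, interval from -0.17 to 0.50) no departure from the sum was detected, and with GC offsets these values were 0.27 (adjusted p 0.0399) and -0.07.

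**Figure D4:**
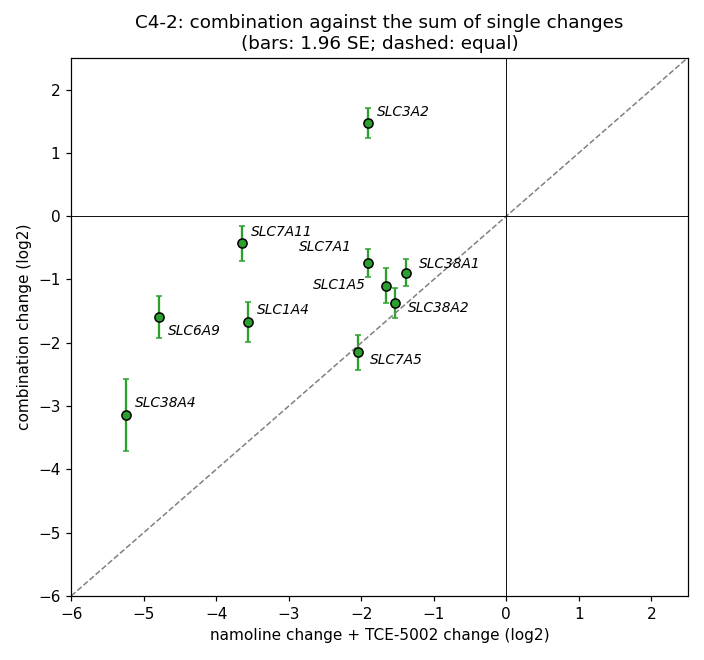
Combination change (vertical axis, log2, error bars 95% intervals) against the sum of the namoline and TCE-5002 changes (horizontal axis, log2) for the 10 transporters in C4-2; the dashed line marks equality. SLC7A5 and SLC38A2 lie near the line, and SLC3A2 lies the farthest above it, 3.37 higher.

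Between the single inhibitors, 6 members differed by adjusted p, where 18.5% of all genes did. SLC7A11, SLC3A2, SLC1A4 and SLC6A9 were lower with namoline than with TCE-5002, by 0.45, 0.53, 0.86 and 0.71 on the log2 scale, and SLC38A2 (0.39) and SLC38A4 (2.98) were higher. SLC1A4 (-1.03) and SLC6A9 (-1.02) passed 2-fold as well without TCE-5002 replicate 1. Of the 6, 4 lost their adjusted p with another library left out. This held without namoline replicate 2, where SLC7A11 was -0.24, SLC38A2 0.31, SLC6A9 -0.68 and SLC3A2 -0.52. Without TCE-5002 replicate 2 SLC6A9 was -0.35. SLC7A11 and SLC38A2 lost their adjusted p with most single libraries left out, and also in an edgeR fit of these 2 groups alone. In that fit SLC7A11 was -0.45 (adjusted p 0.0978) and SLC38A2 0.39 (adjusted p 0.145). For SLC7A5 (0.05, interval from -0.22 to 0.32), SLC7A1 (-0.11, interval from -0.33 to 0.12), SLC1A5 (-0.35, interval from -0.61 to -0.08, adjusted p 0.0932) and SLC38A1 (0.04, interval from -0.18 to 0.26) no difference passed the test.

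Set directly against the single inhibitors, the combination split the members. Against namoline 3 were at least 2-fold higher (SLC3A2, SLC7A11 and SLC6A9; 12.8% of all genes were) and 2 were at least 2-fold lower (SLC7A5 and SLC38A4; 14.7% of all genes). Against TCE-5002 2 were at least 2-fold higher (SLC3A2 and SLC7A11; 11.7% of all genes) and 1 was at least 2-fold lower (SLC7A5; 14.4%). Nothing particular to the members is read from these counts. With GC offsets SLC7A11 against TCE-5002 came to 1.00, just under the line. SLC38A4 against TCE-5002 was 0.97 (SE 0.41, adjusted p 0.0538), and ran from 0.39 (adjusted p 0.411) without TCE-5002 replicate 1 to 1.92 without TCE-5002 replicate 2, where it passed.

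In the libraries labelled LNCaP, 4 of the 9 members tested were at least 2-fold lower with the combination, where 11.3% of all 17565 genes were. By adjusted p alone 7 were lower and 1 was higher, where 56.3% of all genes passed in either direction. The median of the 9 was -0.62, beside 0.00 over all genes. SLC7A5 went from 935 and 875 CPM to 378 and 292 CPM, a 2.59-fold fall (adjusted p 1.36e-11). SLC1A4 went from 89.3 and 100 CPM to 40.3 and 36.6 CPM, and SLC1A5 from 590 and 596 CPM to 275 and 242 CPM. SLC6A9 went from 68.4 and 70.2 CPM to 31.3 and 25.1 CPM. The log2 fold changes of these 4 were -1.37, -1.24, -1.14 and -1.24. Without the library whose header names namoline only they were -1.59, -1.33, -1.24 and -1.42. With GC offsets SLC1A5 (-0.84) and SLC6A9 (-0.98) came under 2-fold.

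The other members labelled LNCaP changed by less than 2-fold. SLC3A2 went from 559 and 507 CPM to 386 and 334 CPM (-0.50, SE 0.11, adjusted p 0.000204), so the heavy chain fell there. SLC7A1 went from 625 and 651 CPM to 422 and 376 CPM (-0.62, SE 0.11). SLC7A11, scarce in these libraries, went from 95.2 and 114 CPM to 71.7 and 66.0 CPM (-0.54, SE 0.11). SLC38A2 rose, from 316 and 320 CPM to 430 and 470 CPM (0.56, SE 0.10, adjusted p 2.55e-05). SLC38A1 was at 782 and 834 CPM and then at 900 and 911 CPM, which did not pass the test (0.22, SE 0.11, adjusted p 0.0873), and came to -0.02 with GC offsets. SLC38A4 had 7 and 10 counts with R1881 and 5 and 4 with the combination, too few to be tested. Without the library whose header names namoline only, SLC3A2, SLC7A1, SLC7A11, SLC38A2 and SLC38A1 gave -0.63, -0.72, -0.62, 0.61 and 0.22.

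The difference between the lines in the combination effect was tested directly, over all 19763 genes of the fit, with a median of -0.10 over all genes and -0.44 over the 10. By adjusted p alone 7 of the 10 differed, where 47.7% of all genes did. SLC3A2 was the single member at least 2-fold higher in C4-2 (1.92, SE 0.13, adjusted p 4.85e-12; 11.5% of all genes were). SLC38A1 (-1.16, SE 0.12), SLC38A2 (-1.98, SE 0.12) and SLC38A4 (-2.61, SE 0.73) were at least 2-fold lower, where 13.9% of all genes were. Without the library whose header names namoline only, the values of SLC3A2, SLC38A1 and SLC38A2 were 2.03, -1.18 and -2.05, while SLC38A4 was -2.35 with an adjusted p of 0.0573 and did not pass. SLC38A1 was -0.89 with GC offsets. SLC7A5 (-0.83, SE 0.15) fell further in C4-2, and was past 2-fold with GC offsets (-1.12) and without LNCaP combination replicate 2 (-1.02), but came to -0.64 without replicate 1, whose header names namoline only. SLC7A11 (0.06, interval from -0.20 to 0.32), SLC7A1 (-0.18, interval from -0.42 to 0.07) and SLC1A5 (-0.01, interval from -0.26 to 0.23) gave no difference that passed the test. Without that replicate 1 they gave 0.11, -0.10 and 0.07, and with GC offsets SLC7A11 (0.30) and SLC1A5 (-0.31) did pass.

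With R1881 alone, 5 of the 10 members differed by at least 2-fold between the lines, a share close to that of all genes. SLC7A11 was 5.93-fold higher in C4-2 than in the libraries labelled LNCaP, SLC38A2 2.60-fold higher and SLC38A4 31.9-fold higher, where 24.3% of all genes were at least 2-fold higher. SLC1A4 was 2.81-fold lower in C4-2 and SLC1A5 2.03-fold lower, where 26.2% of all genes were at least 2-fold lower. SLC1A5 came under 2-fold with GC offsets (-0.93) and without C4-2 R1881 replicate 1 (-0.97). SLC7A1 and SLC6A9 were higher in C4-2 by 0.74 and 0.91 on the log2 scale, and SLC7A5 was lower by 0.84. SLC3A2 (-0.06, interval from -0.24 to 0.12) and SLC38A1 (-0.08, interval from -0.24 to 0.09) did not pass the test. Line and cell state cannot be told apart here, since the mesenchymal and epithelial markers given above differ along with the label. The part of cell state in these differences was not tested.

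The order of the 6 groups by mean CPM is given as a description, with the neighbours that overlapped. For SLC7A11 it was C4-2 R1881 (597 CPM), combination (446), TCE-5002 (199), namoline (146), LNCaP R1881 (105) and LNCaP combination (68.9), without overlap. For SLC7A5 the order was LNCaP R1881 (905), C4-2 R1881 (485), LNCaP combination (335), namoline (246), TCE-5002 (237) and C4-2 combination (110), and only namoline and TCE-5002 overlapped. For SLC38A1 the same pair overlapped. LNCaP combination and TCE-5002 overlapped for SLC3A2, SLC38A2 and SLC6A9, and TCE-5002 and LNCaP R1881 for SLC38A4. For SLC7A1 the C4-2 combination overlapped both LNCaP R1881 and TCE-5002. For SLC1A5 the overlaps were between C4-2 R1881 and the LNCaP combination and between namoline and the C4-2 combination. SLC1A4 had no overlap between neighbours.

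Other genes of amino acid supply were read from 3 lists, chosen like the members with earlier results of these data known. Of 37 other plasma membrane and lysosomal amino acid transporters, 21 passed the filter in C4-2. With namoline 4 of these were at least 2-fold higher and 1 lower, where 5.16% of all genes were higher and 6.90% lower. The 4 were the taurine carrier SLC6A6 (2.58 ± 0.389 to 15.7 ± 3.02 CPM), the lysosomal proton-coupled carrier SLC36A1 (25.3 ± 1.61 to 113 ± 18.3 CPM), the glutamate carrier SLC1A3 and the neutral amino acid carrier SLC43A2 (37.3 ± 0.321 to 103 ± 8.87 CPM). With TCE-5002 4 were higher, where 5.07% of all genes were, among them SLC1A3, SLC36A1 and the aromatic amino acid carrier SLC16A10. The median of the 21 was 0.33 with namoline and 0.21 with TCE-5002, where those of the 10 members were -1.07 and -1.01. With the combination the median was -0.22, and 1 was at least 2-fold higher and 2 lower, where 8.90% and 12.8% of all genes were. The 2 were the branched-chain amino acid carrier SLC43A1, at 384 ± 27.5 and then 132 ± 2.52 CPM, and SLC38A10, at 161 ± 12.1 and then 75.0 ± 0.135 CPM. In the interaction 10 of the 21 were at least 2-fold below the sum of the single changes, where 18.6% of all genes were. Above it in this way was 1 of the 21, where 16.8% of all genes were. Of 26 tested in the libraries labelled LNCaP, 1 was at least 2-fold higher with the combination and 4 were lower. Of all genes there, 7.40% were higher and 11.3% lower in this way. SLC6A6 (4.44 ± 0.185 to 24.2 ± 1.34 CPM) was the one that rose, and SLC38A10 (95.6 ± 0.319 to 34.6 ± 2.77 CPM) was among those that fell. Without the replicate in doubt 1 was higher and 3 lower, with SLC6A6 at 2.43 and SLC38A10 at -1.5 on the log2 scale.

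Of 14 listed mitochondrial carriers of amino acids or related compounds, 13 were tested in C4-2. Those that changed did so by less than 2-fold in the 4 comparisons against R1881. By adjusted p, 8 rose with namoline and 7 with TCE-5002, with medians of 0.43 and 0.39, where 35.1% and 36.8% of all genes passed in either direction. With the combination 3 rose and 2 fell, with a median of 0.09, where 50.6% of all genes passed. In the libraries labelled LNCaP 6 rose and 2 fell, with a median of 0.23, where 56.3% of all genes passed. Without the replicate in doubt the median was 0.36. Of 30 amino acid response and synthesis genes, all tested, 13 were at least 2-fold lower with namoline and 10 with TCE-5002, beside 6.90% and 6.83% of all genes. They included CHAC1, which degrades glutathione (49.9 ± 4.80 to 1.87 ± 0.352 CPM with namoline), the stress transcription factor DDIT3 (372 ± 19.5 to 18.8 ± 2.18 CPM), the cysteine synthesis enzyme CTH (80.2 ± 3.21 to 11.5 ± 0.0955 CPM) and the leucine sensor SESN2 (150 ± 10.8 to 26.3 ± 1.99 CPM). BCAT1, which starts branched-chain amino acid breakdown, led the list with TCE-5002 (159 ± 17.7 to 37.2 ± 4.57 CPM). With the combination 11 were lower and 3 higher, beside 12.8% and 8.90% of all genes. Serine synthesis enzymes were among the lower, with PSAT1 at 786 ± 12.2 and then 157 ± 7.86 CPM and PSPH at 99.8 ± 4.42 and then 21.2 ± 0.502 CPM. ATF3, a stress-induced transcription factor, was the leading riser, at 122 ± 0.297 and then 1834 ± 118 CPM. The other 2, outside the naming rule and named after their values were seen, were DDIT3 (1.09) and GCLM, a subunit of the glutathione synthesis enzyme (75.4 ± 1.41 to 166 ± 6.20 CPM). The list's medians were -0.84 with namoline, -0.51 with TCE-5002 and -0.59 with the combination. Among the libraries labelled LNCaP 3 were at least 2-fold higher and 3 lower, beside 7.40% and 11.3% of all genes. Nothing particular to the list is read from these 2 counts. The higher included ASNS, which makes asparagine (238 ± 24.1 to 661 ± 0.156 CPM), and DDIT3 (1.21, SE 0.12). The lower included CHAC1 (28.6 ± 2.10 to 9.22 ± 2.67 CPM) and SESN2 (448 ± 5.64 to 152 ± 21.6 CPM). Without the replicate in doubt the list also had 3 higher and 3 lower, with ASNS at 1.52, DDIT3 at 1.31, CHAC1 at -1.92 and SESN2 at -1.67 on the log2 scale. DDIT3 shares 28.0% of its exonic bases with MARS1 on the opposite strand.

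Over the 8 C4-2 libraries, the genes whose log2 CPM ran most like a member differed between members. These correlations, which have no test, are descriptions over libraries that fall into 4 groups. Among 9571 named protein-coding genes with a mean of at least 10 CPM, SLC3A2 ran most like PPP1R15A (r = 0.998), a stress-induced phosphatase subunit, then TRIM39 and GNL1. SLC7A5 ran most like PHGDH (r = 0.993), the first enzyme of serine synthesis, and then ATF5 and C1RL. SLC7A11 ran most like BEX2 (r = 0.995), LAMP3 and CLIC4, and SLC7A1 like NFE2L1 (r = 0.991), ARHGAP26 and CTDSP2. For SLC1A4 they were STC2 (r = 0.986), RPS6KA2 and ZNF891, and for SLC1A5 CLDN7 (r = 0.984), PROSER2 and ATP7B. SLC38A1 ran like PLCB1 (r = 0.990), IARS1 and BCAT1, SLC38A2 like FOXN3 (r = 0.990), FNIP2 and CDKN3, and SLC38A4 like EFCC1 (r = 0.998), SLC9A8 and STAG1. SLC6A9 ran most like ADM2 (r = 0.975), ZNF891 and ATF4. Among the members themselves the closest pair was SLC6A9 and SLC7A1 (r = 0.98), and the most opposed was SLC3A2 and SLC7A5 (r = -0.54).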

How the data were processed

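Polyadenylated RNA was sequenced in paired ends. Per the labels and methods, the authors trimmed reads with Trim Galore and cutadapt, checked them with FastQC and aligned them to GRCh38 with STAR (version not given in the sources used here). The deposited files hold raw counts, which their headers credit to featureCounts. They are counts of fragments per gene from version v1.5.0-p1 with Ensembl annotation 83, without strand. Fragments matching several genes stay uncounted by default, so reads in shared exons may be lost. Groups came from the titles. A protocol field describing siRNA does not match them.

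Genes were kept with filterByExpr, scaled by TMM and tested by quasi-likelihood in edgeR 4.0.16 under R 4.3.3 (limma 3.58.1 was loaded with it). P-values were adjusted over every gene of a fit by Benjamini-Hochberg. One fit held the 8 C4-2 libraries, one the 4 labelled LNCaP and one the 8 R1881 and combination libraries of both lines. A gene passed the threshold at an adjusted p under 0.05 and at least 2-fold (log2 fold change of 1). "Fell" and "rose" need the adjusted p. Intervals are 95% normal intervals from the SE. Levels in CPM, and in FPKM by merged exon length, used TMM factors set over the 12 libraries on the deposited counts. GC offsets came from 20 bins of transcript GC (GENCODE 29, at least 99.1% of genes tested). Other alternatives were RLE scaling, no filter, DESeq2 1.42.0, a replicate block, a fit of the groups compared and leaving out each library. Counts and medians of the lists without the LNCaP combination library in doubt were added after seeing the data. The steps were tested on simulated data.

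The members and lists were chosen with earlier results of these data known. Genes of the lists were named as up to 4 per list and comparison against R1881, by largest change past the threshold where the higher group reached 10 CPM, and genes most like a member as the 3 with the highest Pearson r. ATF4-type and antioxidant motifs were searched as spelled out in the text.

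Same-numbered libraries of different groups deviated from their group means with r from -0.09 to 0.10 over 20153 genes, so the numbers were not taken to pair them. Replicates differed by more than counting noise, with a chi-square per gene from 3.63 to 28.1, the highest in C4-2 TCE-5002. Differences between replicates followed transcript GC, by a Spearman rho over genes that was lowest in C4-2 TCE-5002 (-0.50) and highest in the LNCaP combination (0.34). With 2 libraries per group, the spread of a gene rests largely on what is shared across genes.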

Additional observations from a re-analysis of the deposited data

Results flagged for a closer look

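For 7 of the 10 transporters the combination changed the transcript differently in C4-2 than in the libraries labelled LNCaP, by the test of line and treatment together (edgeR adjusted p under 0.05), where 47.7% of all genes passed it. The C4-2 effect minus the LNCaP effect was 1.92 on the log2 scale for SLC3A2, -0.83 for SLC7A5, -0.47 for SLC1A4, -1.16 for SLC38A1, -1.98 for SLC38A2, -2.61 for SLC38A4 and -0.40 for SLC6A9. SLC3A2 and SLC38A2 went in opposite directions in the lines, with 4 of 4 treated libraries on the side given in the report. SLC38A4 rests on 4 to 10 counts per library labelled LNCaP. Without the LNCaP combination library whose header names namoline only, SLC6A9 was -0.25 (adjusted p 0.159) and SLC38A4 -2.35 (adjusted p 0.0573), so these 2 no longer passed, while SLC1A4 was -0.41 (adjusted p 0.0315). SLC1A4 missed the test with GC offsets (-0.24, adjusted p 0.173), in DESeq2 (-0.41, adjusted p 0.0653), without LNCaP R1881 replicate 1 (-0.28, adjusted p 0.223) and without C4-2 combination replicate 2 (-0.42, adjusted p 0.087). SLC6A9 also missed it with RLE scaling (-0.34, adjusted p 0.06) and in DESeq2 (-0.34, adjusted p 0.108). The part of cell state, which differs between the lines in the epithelial and mesenchymal markers, was not tested.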

How the results depend on the processing

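Of the member fold changes recomputed under the alternatives, 1349 kept their direction and side of the threshold, 27 lost and 20 gained a call, and 24 reversed, from values within 0.22 of 0. With GC offsets, with or without the replicate block, SLC1A5 in the combination against namoline was 0.06, SLC7A5 and SLC38A2 in the interaction were 0.27 and -0.07, and SLC38A1 in LNCaP was -0.02. With RLE scaling or DESeq2, SLC1A5 in the difference between the lines was 0.05. With 1 library left out, the difference between the lines ran from -0.12 to 0.11 for SLC1A5 and from -0.01 to 0.30 for SLC7A11, and the combination against namoline from -0.18 to 0.02 for SLC1A5. Namoline against TCE-5002 ran from -0.15 to 0.27 for SLC7A5 and from -0.05 to 0.12 for SLC38A1, and the interaction from -0.27 to 0.10 for SLC7A5 and from -0.01 to 0.37 for SLC38A2.

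By adjusted p alone, members passing of the 10 (9 tested in LNCaP) numbered 10 for TCE-5002, 6 for the combination against TCE-5002 and 6 for namoline against TCE-5002. They numbered 8 for LNCaP, 7 in how the lines differed and 8 between the lines at R1881. Of 17702 genes tested in C4-2, 6218 passed with namoline, 6514 with TCE-5002 and 8955 with the combination. The combination against namoline gave 9921 of these genes, against TCE-5002 9788, namoline against TCE-5002 3273 and the interaction 9489. In LNCaP 9893 of 17565 genes passed. Of 19763 genes in the fit of both lines, 9431 passed in the difference and 15188 between the lines at R1881. More genes passed than did not in the C4-2 combination against R1881, namoline or TCE-5002, and in the interaction. The same held in LNCaP and between the lines at R1881. Member counts by adjusted p alone in these comparisons are not read as particular. With GC offsets, alone or with the block, 1 member passed the 2-fold threshold in the combination against TCE-5002 and 2 in LNCaP. Totals of all genes with GC offsets are not given here, so nothing particular to the members is read from these counts. With 1 library left out, namoline against TCE-5002 put 1 to 3 members and 488 to 1228 genes past the threshold, the 3 without TCE-5002 replicate 1 and the 488 without namoline replicate 2. A replicate block alone changed no count of members, with 7 for namoline and 5 for TCE-5002. Of the 17702 genes, 2195 and 2143 passed the threshold in these 2 fits. The cause of these shifts was not tested. Of 80 member differences with an adjusted p under 0.05, 14 lost it under at least 1 alternative. SLC38A4 had as few as 4 counts in a library, which limits its fold changes.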
